A study of Mus musculus with 8 samples.

Results

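Wnt ligands are secreted glycoproteins that carry signals between neighbouring cells, and 10 of them that duct epithelium or the mesenchyme around it may produce (Wnt2b, Wnt4, Wnt5a, Wnt5b, Wnt6, Wnt7a, Wnt7b, Wnt9a, Wnt9b and Wnt11) are described here. They were found in the deposited count table by matching mouse Ensembl identifiers to these symbols, which gave 10 genes of 46517, and 10 of the 19 mouse Wnt genes. The libraries were made from epididymal ducts, which form from the Wolffian duct, dissected at E18.5, shortly before birth. Controls 1, 3, 4 and 6 gave 4 libraries, and the conditional Ptk7 knockouts (cKO) 1, 2, 4 and 5 gave another 4. Controls were Ptk7 +/flox, and knockouts carried the floxed allele over Xst87, a disrupted Ptk7 allele. T-Cre, in which the promoter of the mesodermal gene T (Brachyury) drives Cre, and mT/mG, a fluorescent reporter of Cre activity, were present in both groups. Controls thus had Cre as well and could lose their floxed copy. Whether each library was a separate embryo or a pool is not labelled. Replicate spread, on which all p-values rest, may therefore differ from the spread between single embryos. If libraries shared a pool, it may be technical in part.

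Inside the producing cell a Wnt protein receives a palmitoleate lipid on a conserved serine, added by the acyltransferase Porcn, and is then carried to the surface by Wls. Outside, it binds Frizzled receptors together with Lrp5 or Lrp6, which stabilises beta-catenin, or together with Ror or Ryk, which acts on cell shape and movement. PTK7 is a Wnt co-receptor of the planar cell polarity branch. In the developing urogenital tract Wnt9b comes from the Wolffian duct epithelium, Wnt5a from mesenchyme, and Wnt4 takes part in forming Müllerian ducts and kidney tubules.

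The lipid site is the feature that all 10 ligands share, so the coding stretch around it is shown for each (42 bases, from GENCODE M21 transcripts on GRCm38, 5′ to 3′ on the gene's own strand). Capitals mark the codon of the acylated serine. Each stretch lies within 1 coding exon.
Wnt5a (chr14:28522506-28522547, plus strand, codon 244): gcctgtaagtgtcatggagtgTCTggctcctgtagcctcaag
Wnt5b (chr6:119433791-119433832, minus strand, codon 236): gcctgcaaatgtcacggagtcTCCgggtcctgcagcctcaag
Wnt7a (chr6:91366263-91366304, minus strand, codon 206): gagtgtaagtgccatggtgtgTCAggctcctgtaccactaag
Wnt7b (chr15:85537803-85537844, minus strand, codon 213): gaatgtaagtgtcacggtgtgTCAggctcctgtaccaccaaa
Wnt9a (chr11:59330917-59330958, plus strand, codon 221): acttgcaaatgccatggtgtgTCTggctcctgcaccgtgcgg
Wnt9b (chr11:103731158-103731199, minus strand, codon 218): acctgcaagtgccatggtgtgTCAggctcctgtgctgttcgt
Wnt2b (chr3:104951211-104951252, minus strand, codon 241): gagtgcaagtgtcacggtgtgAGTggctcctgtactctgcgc
Wnt4 (chr4:137296336-137296377, plus strand, codon 212): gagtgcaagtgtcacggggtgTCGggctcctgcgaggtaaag
Wnt6 (chr1:74784163-74784204, plus strand, codon 227): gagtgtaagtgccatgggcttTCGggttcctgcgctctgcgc
Wnt11 (chr7:98850251-98850292, plus strand, codon 215): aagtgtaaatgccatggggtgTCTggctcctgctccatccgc

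Of the 42 positions, 18 held the same base in all 10 genes, and 5 different serine codons were used, with AGT in Wnt2b alone. Wnt7a and Wnt7b were the closest pair (37 of 42 bases, 88.1%), followed by Wnt5a and Wnt5b (35 bases, 83.3%). Over whole transcripts the longest run of identical bases shared by a ligand with any other Wnt gene was 29, between Wnt5a and Wnt5b (135 pairs compared). The authors' read length is not given in the sources used here. A read longer than such a run would hold at least 1 difference between the genes.

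Ptk7 was checked first, since it was the targeted gene. It stood at 189, 112.5, 313 and 169 CPM (counts per 1e+06 counts of the library, scaled for its composition) in controls 1, 3, 4 and 6, and at 7.33, 7.59 and 12.5 CPM in the libraries labelled cKO 1, 2 and 4. The library labelled cKO 5 had 194 CPM, within the control range, so its label goes against its Ptk7 level. Differences below compare labels, and that of each ligand is given again without that library. Ptk7 itself differed by -1.82 on the log2 scale with all 8 libraries (SE 0.95, edgeR adjusted p = 0.655) and by -4.42 without it (SE 0.37, edgeR adjusted p = 0.00805). Of the 16469 genes tested, control 3 was the lowest of the 8 libraries in 26.6%, and it was lowest in 6 of the 10 ligands, so values without control 3 are given for the ligands it moved most.

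Duct epithelium was present by its markers: all 18 genes of that list passed the filter on low counts, among them Pax2, Pax8, Lhx1, Epcam and Cdh16. Their summed level was 1446 to 1716 CPM in controls and 1232 to 1700 in the cKO label, and 14 of 18 had a lower estimate there (median log2 fold change -0.37, against 0.01 over all genes), 11 of them and 2 of the higher ones at an unadjusted p under 0.05 in edgeR, as were 4.87% (lower) and 3.5% (higher) of all genes. Smooth muscle markers leaned the same way, with 8 of 10 below 0, 6 lower and 1 higher at that threshold, a median of -0.32, and summed levels of 3303 to 3941 CPM in controls and 2590 to 3285 in the cKO label. Mesenchyme markers summed to 17034 to 21965 CPM in controls and 19070 to 24443 in the cKO label. Most of this came from Col1a1, Col1a2 and Col3a1 (control means 4575, 4887 and 5197 CPM), so the sums do not compare amounts of tissue. Of the 14 mesenchyme markers tested 12 had an estimate above 0 (median 0.10), with 2 higher and 1 lower at that threshold. Both tissues were therefore in the libraries, and the counts do not show which of them made a given ligand. Fewer cells of a type and less RNA per cell also cannot be told apart. Summed markers of nephron and podocyte (9.35 to 22.1 CPM) and of testis and adrenal (18.6 to 28.3 CPM) were low. Their defining genes were near 0: Insl3 had at most 1 count in a library, Nphs1 at most 2 and Slc12a1 at most 4.

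All 10 ligands passed the filter on low counts, and their levels spanned a wide range. Levels are compared between genes as RPKM, that is CPM per kilobase of summed exon. Wnt5a, the main ligand of planar polarity signalling, was the most abundant, at 105 ± 3.78 RPKM in controls and 98.9 ± 11.0 in the cKO label (SD, n = 4 each). It made up 45.2% ± 5.02 of the summed RPKM of all 19 Wnt genes in controls and 41.3% ± 2.96 in the cKO label. Its share was highest in control 3 (52.4%) and lowest in the library labelled cKO 5 (37.6%). Wnt6, a ligand of epithelia, came next at 53.1 ± 10.2 and 51.4 ± 3.74 RPKM, or 22.6% ± 2.76 and 21.5% ± 1.02 of the total. Ranked among all genes tested, Wnt5a lay at the 96.4th percentile of control RPKM and Wnt6 at the 92.5th.

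**Figure D1:**
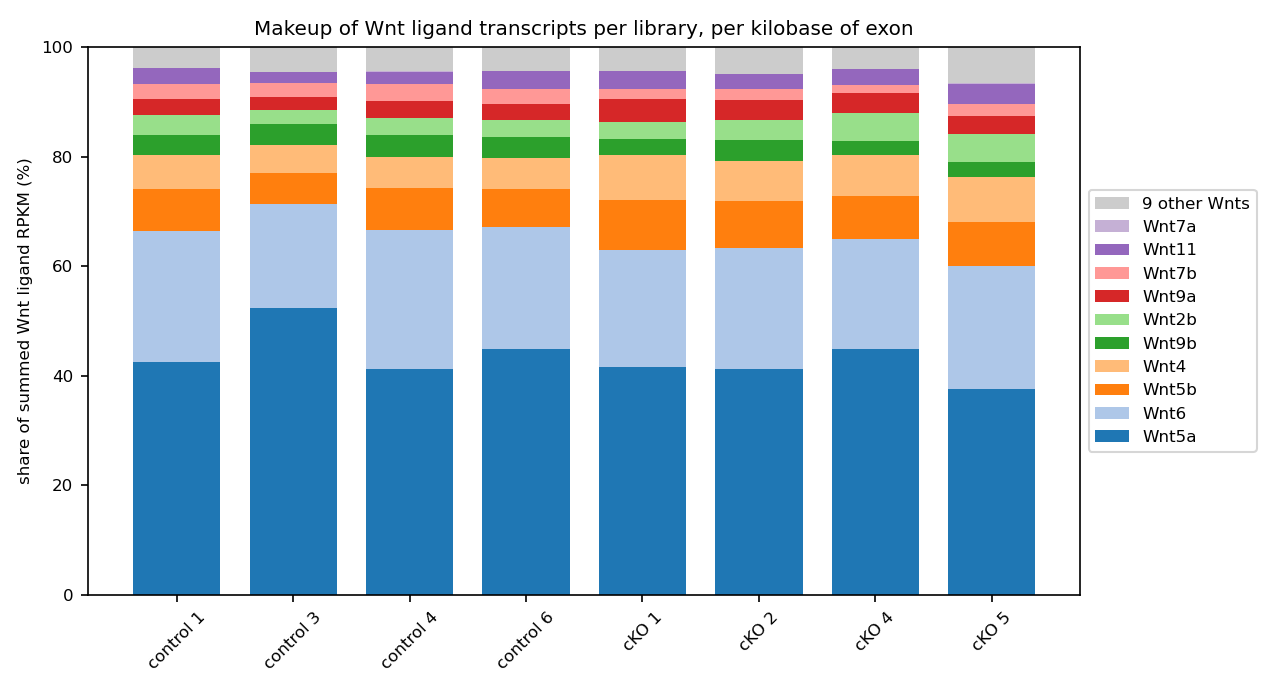
Share of the summed RPKM of 19 Wnt genes (y axis, percent) held by each of the 10 ligands and by the 9 other Wnt genes together, stacked for each of the 8 libraries (x axis). Wnt5a holds 37.6% to 52.4% and the 9 others together stay a thin band at the top.

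Behind these came Wnt5b (16.5 ± 3.44 RPKM in controls), Wnt4 (13.2 ± 1.90) and Wnt9b (8.86 ± 0.83). Wnt2b (7.30 ± 1.39), Wnt9a (6.72 ± 1.15), Wnt7b (6.42 ± 1.02) and Wnt11 (6.08 ± 1.60) formed a group of near-equal levels. Wnt7a was far below, at 0.25 ± 0.02 RPKM (SD, n = 4 in each case). The first 4 places, Wnt5a, Wnt6, Wnt5b and Wnt4, were held in that order in all 8 libraries, and Wnt7a was last in all 8. Wnt5b and Wnt4 were close in the cKO label (log2 ratio 0.12 ± 0.11). In the library labelled cKO 5 they had 18.91 and 18.90 RPKM. By mean CPM, without length, Wnt4 stood above Wnt5b in both groups. Within controls the steps from Wnt5b to Wnt4 (log2 ratio 0.31 ± 0.13) and from Wnt4 to Wnt9b (0.57 ± 0.15) held in 4 of 4 libraries. The steps from Wnt2b to Wnt9a (0.11 ± 0.12), from Wnt9a to Wnt7b (0.06 ± 0.12) and from Wnt7b to Wnt11 (0.11 ± 0.37) were no larger than their SD (n = 4). Wnt2b was above Wnt9a in 4 of 4 controls, Wnt9a above Wnt7b in 3 and Wnt7b above Wnt11 in 2. The step from Wnt11 down to Wnt7a was 23.5-fold. In the cKO label Wnt2b, Wnt9a and Wnt11 stood above Wnt9b on average. The steps between neighbours among these 4 were again no larger than their SD. Wnt9b was above Wnt7b in 4 of 4 libraries, with a log2 ratio of 0.70 ± 0.30.

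The comparison of the labels asks which genes differ when Ptk7 is removed from mesoderm-derived cells. Small differences ran in both directions among the ligands: Wnt4, Wnt9a and Wnt2b were higher in the cKO label, Wnt7b and Wnt9b were lower, and the most abundant pair, Wnt5a and Wnt6, had estimates near 0. No ligand passed an adjusted p of 0.05 in edgeR over all genes, where 0 of 16469 genes (0%) were called. At an unadjusted p under 0.05 in edgeR there were 3 higher and 2 lower ligands of 10, where the shares over all genes were 3.5% and 4.87% (8.37% in either direction). Without the library labelled cKO 5 there were 2 higher and 2 lower, against 3.74% and 5% of all genes. Wnt2b and Wnt9b then no longer met that threshold, and Wnt7a did. With all 8 libraries the groups did not overlap in 2 higher and 1 lower ligand, against 2.65% and 3.11% of all genes (5.76% in either direction). DESeq2 at an adjusted p of 0.05 called 1 higher and 1 lower ligand, and 1.13% of all genes, a share that was again 1.13% without the library labelled cKO 5. edgeR without that library called none of the 10 and 0.00599% of all genes. Since the ligands were chosen with results of these data known, those counts are no test of the family. The median log2 fold change of the 10 was 0.12, with 5 above 0 and 5 below, and that of all genes was 0.01.

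**Figure D2:**
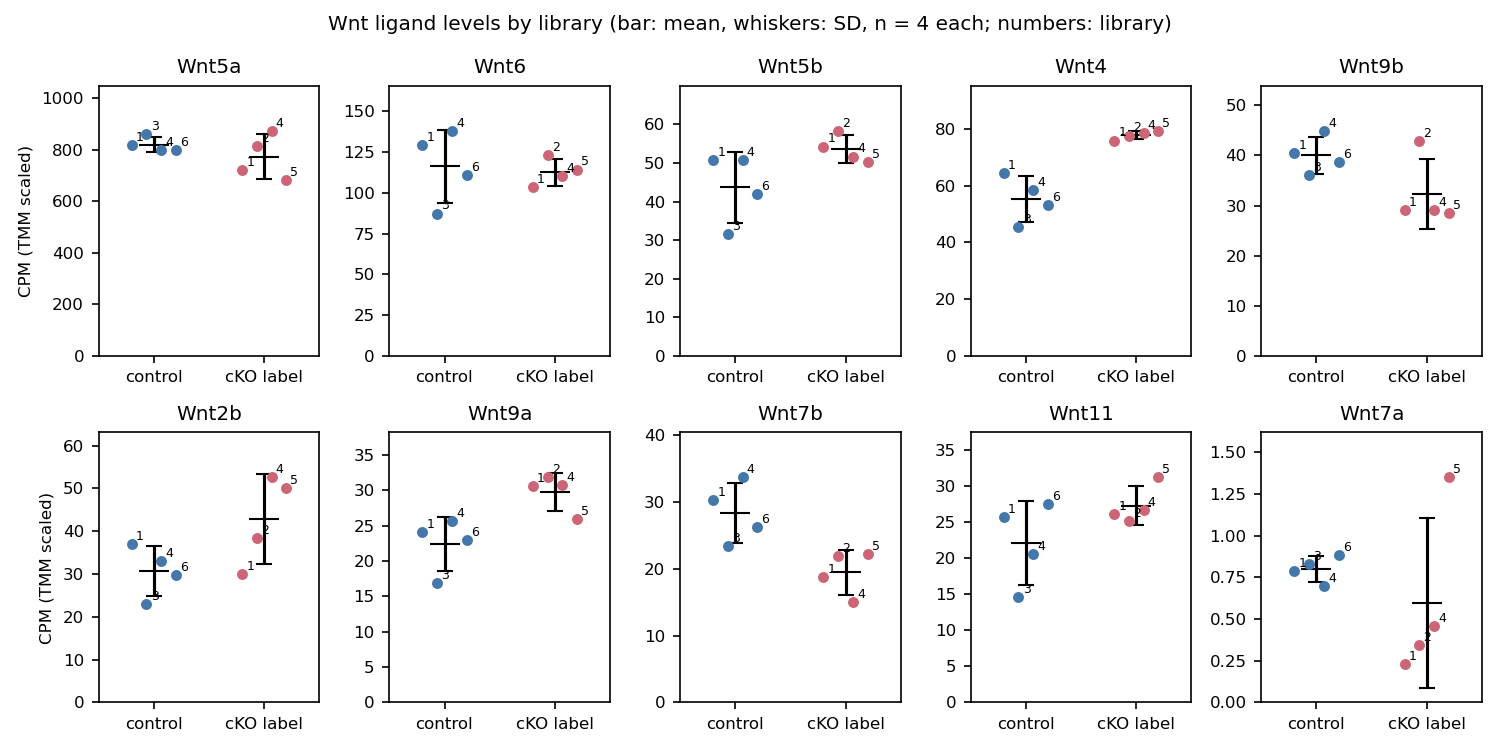
CPM of each ligand (y axis, from 0) in the 4 control and 4 cKO-labelled libraries (x axis), with library numbers beside the points, horizontal bars for means and whiskers for SD (n = 4). Wnt4 and Wnt9a lie higher and Wnt7b lower in the cKO label without overlap, and in Wnt7a the library labelled cKO 5 stands above all others.

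Wnt4 (ENSMUSG00000036856, GRCm38 chromosome 4, 137277489 to 137299726, plus strand) had 64.3, 45.5, 58.3 and 53.2 CPM in controls 1, 3, 4 and 6. It had 75.9, 77.6, 78.5 and 79.3 CPM in the libraries labelled cKO 1, 2, 4 and 5. The 4 cKO-labelled libraries lay close together and above every control. The library labelled cKO 5, whose Ptk7 level was within the control range, lay with the other 3. The fold change was 1.41, or 0.49 on the log2 scale (SE 0.10, edgeR adjusted p = 0.161). This made Wnt4 number 33 of 16469 genes by p. DESeq2 called it (adjusted p = 0.00209), as it called 0.352% of genes higher. Without the library labelled cKO 5 the log2 fold change was 0.48 (SE 0.11, edgeR adjusted p = 0.234), and DESeq2 called it again (adjusted p = 0.0149). Without control 3 it was 0.41 (SE 0.07, edgeR adjusted p = 0.24). Of the summed Wnt RPKM, Wnt4 held 5.64% ± 0.44 in controls and 7.78% ± 0.43 in the cKO label (SD, n = 4 each), and no library of either group crossed over.

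Wnt9a (ENSMUSG00000000126, chromosome 11, 59306928 to 59333552, plus strand), a ligand that can signal through beta-catenin, had 24.1, 16.9, 25.6 and 22.9 CPM in controls 1, 3, 4 and 6. The libraries labelled cKO 1, 2, 4 and 5 had 30.6, 31.8, 30.7 and 25.9 CPM. The groups were separate by a narrow margin, since the library labelled cKO 5 stood just above control 4. The fold change was 1.33 (log2 0.41, SE 0.13, edgeR adjusted p = 0.379; DESeq2 adjusted p = 0.138). Without the library labelled cKO 5 the log2 fold change was 0.47 (SE 0.13), and without control 3 it was 0.30 (SE 0.09), with edgeR adjusted p = 0.325 and 0.439.

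Wnt2b (ENSMUSG00000027840, chromosome 3, 104945272 to 104961921, minus strand), a mesenchymal ligand in several organs, had 36.9, 23.1, 33.0 and 29.7 CPM in controls 1, 3, 4 and 6. It had 30.0, 38.5, 52.6 and 50.1 CPM in the libraries labelled cKO 1, 2, 4 and 5. The groups overlapped: the library labelled cKO 1 lay inside the control range, and those labelled cKO 4 and 5 were well above it. The log2 fold change was 0.48 (SE 0.19, edgeR adjusted p = 0.507), and it was 0.40 (SE 0.20) without the library labelled cKO 5. It was 0.37 (SE 0.18, edgeR adjusted p = 0.738) without control 3. In both of these fits the unadjusted p was above 0.05. The related Wnt2, outside the 10, also leaned higher, with 10.4 ± 2.88 CPM in controls and 14.4 ± 2.90 in the cKO label (log2 fold change 0.47, SE 0.21, edgeR adjusted p = 0.582). For Wnt2 it was 0.50 without the library labelled cKO 5 and 0.31 without control 1.

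Wnt5b (chromosome 6, 119432531 to 119544347, minus strand) had 50.7, 31.5, 50.7 and 41.8 CPM in controls 1, 3, 4 and 6, and 54.3, 58.3, 51.6 and 50.2 in the libraries labelled cKO 1, 2, 4 and 5. It is the close relative of Wnt5a and acts in the same branch of the pathway. Its range in the cKO label touched that of controls through the library labelled cKO 5. The log2 fold change was 0.29 (SE 0.14, edgeR adjusted p = 0.612), without control 3 it was 0.17 (SE 0.09, edgeR adjusted p = 0.779). It was 0.33 (SE 0.15) without the library labelled cKO 5. Wnt11 (chromosome 7, 98835112 to 98855195, plus strand), a ligand of ureteric bud tips in the kidney, had 25.7, 14.6, 20.5 and 27.5 CPM in controls and 26.1, 25.1, 26.6 and 31.2 in the cKO label, in the same library order. Here the groups overlapped widely, and control 3 was the lowest. The log2 fold change of Wnt11 was 0.31 (SE 0.17, edgeR adjusted p = 0.684) and 0.15 (SE 0.11, edgeR adjusted p = 0.913) without control 3. It was 0.24 (SE 0.19) without the library labelled cKO 5.

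Wnt7b (ENSMUSG00000022382, chromosome 15, 85535439 to 85581821, minus strand), a ligand of branching epithelia such as the collecting duct, was the lower one among the ligands without overlap. It had 30.2, 23.3, 33.6 and 26.2 CPM in controls 1, 3, 4 and 6 and 18.7, 21.8, 15.0 and 22.2 CPM in the libraries labelled cKO 1, 2, 4 and 5. Every cKO-labelled library lay below every control, with control 3 and the library labelled cKO 5 nearest to each other. The cKO label had 68.6% of the control level (log2 fold change -0.54, SE 0.15, edgeR adjusted p = 0.297). DESeq2 called it (adjusted p = 0.0487), as it called 0.777% of genes lower. Without the library labelled cKO 5 the log2 fold change was -0.61 (SE 0.16, edgeR adjusted p = 0.277), and DESeq2 called it again (adjusted p = 0.0338). Leaving out both that library and control 3 gave -0.69 (SE 0.14, edgeR adjusted p = 0.178). In the deposited annotation 38 of its 4413 exon bases are shared with AU022754 on the opposite strand, a gene with 3 to 18 counts per library.

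Wnt9b (ENSMUSG00000018486, chromosome 11, 103727364 to 103749821, minus strand), the Wolffian duct ligand, had 40.5, 36.0, 44.9 and 38.7 CPM in controls 1, 3, 4 and 6. It had 29.1, 42.8, 29.2 and 28.4 CPM in the libraries labelled cKO 1, 2, 4 and 5. In the cKO label 3 libraries stood together below all controls, and the library labelled cKO 2 stood within the control range. The log2 fold change was -0.31 (SE 0.14, edgeR adjusted p = 0.591), and it was -0.25 (SE 0.15, edgeR adjusted p = 0.662) without the library labelled cKO 5. Leaving out the library labelled cKO 2 gave -0.47 (SE 0.10, edgeR adjusted p = 0.231). The library labelled cKO 2 was also the highest of its group in summed duct epithelium markers (1700 CPM, against 1232, 1322 and 1447).

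Because duct epithelium markers were lower in the cKO label, each ligand was also set against them. The value used was log2 CPM of the ligand minus the mean log2 CPM of the 18 markers in the same library. On that scale Wnt9b was at -0.39 ± 0.14 in controls and -0.50 ± 0.14 in the cKO label, a difference of -0.11, against -0.32 before the subtraction. Wnt7b went from a difference of -0.55 to one of -0.34, with -0.90 ± 0.20 in controls and -1.23 ± 0.17 in the cKO label, and its groups then overlapped. Relative to the markers, Wnt4 (difference 0.71), Wnt9a (0.63) and Wnt5b (0.53) were higher in the cKO label without overlap (n = 4 each throughout). Subtracting the marker mean shifts the difference of every ligand by the same amount. Every ligand thus moved up, with Wnt5a going from -0.09 to 0.12 and Wnt6 from -0.03 to 0.18. The shift was set by the markers and not by the ligand, so it cannot show the part of epithelial content in a difference. That part was not tested.

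Of 10 mesothelium markers, 6 had estimates above 0 in the cKO label and 4 below (median log2 fold change 0.32). Tcf21, among those below, is also in the mesenchyme list. At an unadjusted p under 0.05 in edgeR 5 were higher and none lower, against 3.5% and 4.87% of all genes. The groups did not overlap in 4 higher markers and no lower one, against 2.65% and 3.11% of all genes. DESeq2 at an adjusted p of 0.05 called 4 of these markers higher and none lower, against 0.352% and 0.777% of all genes. Their summed level was 975 to 1118 CPM in controls and 1083 to 1292 in the cKO label. Set against the mean of this list instead, Wnt4 differed by 0.30 on the log2 scale and overlapped (controls -0.40 to 0.10, cKO label -0.16 to 0.30). Wnt9a differed by 0.22 and overlapped as well. Set against the 14 mesenchyme markers tested, Wnt4 differed by 0.36 without overlap (controls -2.58 to -2.29, cKO label -2.10 to -2.01). Wnt9a differed by 0.28 against mesenchyme and overlapped (controls -4.01 to -3.47, cKO label -3.71 to -3.30). Wnt7b differed by -0.69 against mesenchyme and by -0.75 against mesothelium, without overlap in either. These references were chosen after the values were seen, and each of them also shifts the differences of all ligands by the same amount.

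**Figure D3:**
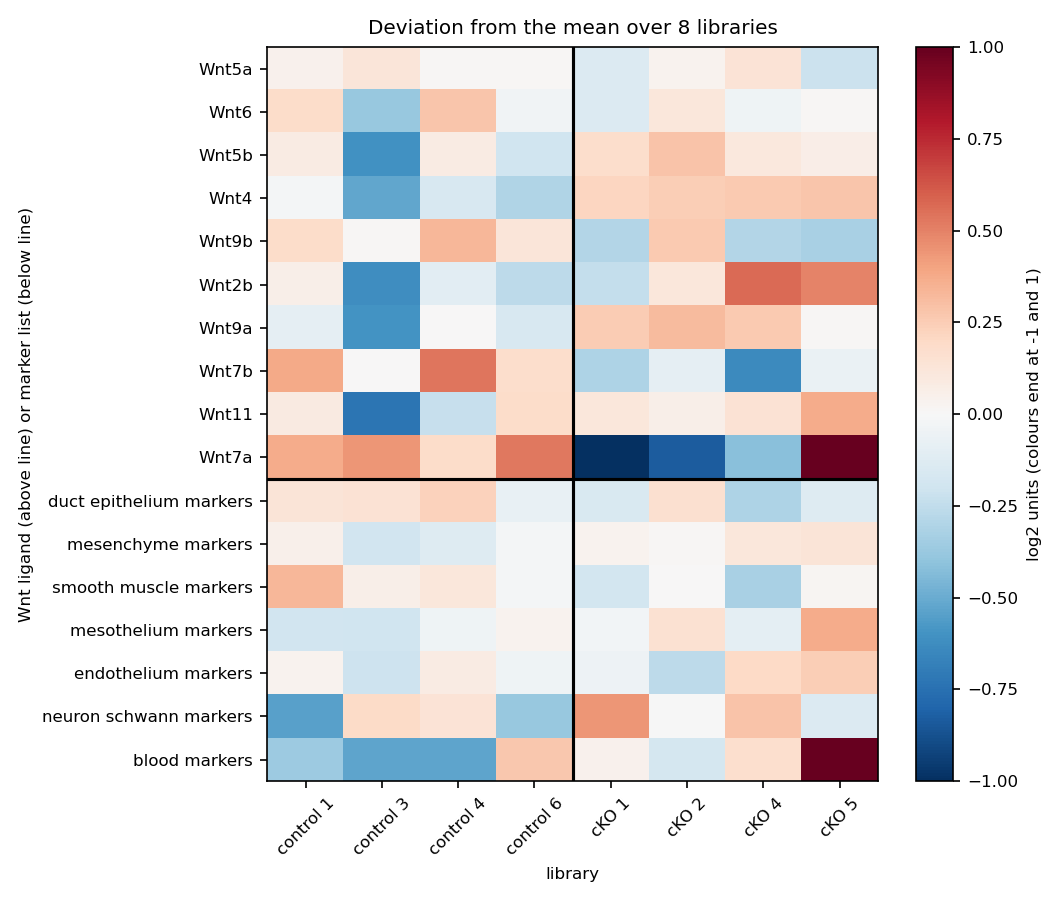
Deviation of each ligand's log2 CPM (rows above the line) and of each marker list's mean (rows below) from its own mean over the 8 libraries (columns), in log2 units with colours ending at -1 and 1. Wnt4 is raised in the 4 cKO-labelled columns, Wnt9a in 3 of them with cKO 5 near its mean, and Wnt7b is lowered there. Control 3 is blue in 6 of the 10 ligand rows, and the library labelled cKO 5 is raised in Wnt7a and in blood markers.

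Wnt5a (ENSMUSG00000021994, chromosome 14, 28504750 to 28527447, plus strand) had 817, 861, 798 and 799 CPM in controls 1, 3, 4 and 6 and 722, 815, 872 and 683 in the libraries labelled cKO 1, 2, 4 and 5. The cKO-labelled libraries were more spread out and lay on both sides of the controls. The log2 fold change was -0.08 (SE 0.09, edgeR adjusted p = 0.814) and -0.03 (SE 0.09) without the library labelled cKO 5. Wnt5a shares 358 of its 7822 exon bases with the opposite-strand gene Gm2670 (192 to 293 counts per library, against at least 16711 for Wnt5a). Wnt6 (chromosome 1, 74771892 to 74785322, plus strand) had 129, 87.3, 138 and 111 CPM in controls and 103, 123, 110 and 114 in the cKO label. Its cKO range lay inside the control range, and the log2 fold change was -0.05 (SE 0.13, edgeR adjusted p = 0.938). Without control 3, the lowest library, it was -0.16 (SE 0.09, edgeR adjusted p = 0.80). It stayed at -0.05 (SE 0.14) when the library labelled cKO 5 was left out.

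Wnt7a (ENSMUSG00000030093, chromosome 6, 91363981 to 91411363, minus strand), the ligand of Müllerian duct epithelium, was near the detection limit. Controls 1, 3, 4 and 6 had 20, 25, 20 and 24 counts, and the libraries labelled cKO 1, 2, 4 and 5 had 6, 9, 12 and 33. The first 3 cKO-labelled libraries were below every control. The library labelled cKO 5, whose Ptk7 level was within the control range, was above every other library. With all 8 libraries the log2 fold change was -0.44 (SE 0.46, edgeR adjusted p = 0.814). Without the library labelled cKO 5 it was -1.21 (SE 0.32, edgeR adjusted p = 0.30), from 0.80 ± 0.08 CPM in controls (SD, n = 4) to 0.34 ± 0.11 in the remaining 3 (SD, n = 3). Leaving out the library labelled cKO 1 or cKO 2 instead gave -0.17 and -0.25. With the library labelled cKO 5 left out, the groups were separate in 3 higher ligands (Wnt4, Wnt5b and Wnt9a) and 2 lower ones (Wnt7a and Wnt7b), against 5.2% and 5.88% of all genes.

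**Figure D4:**
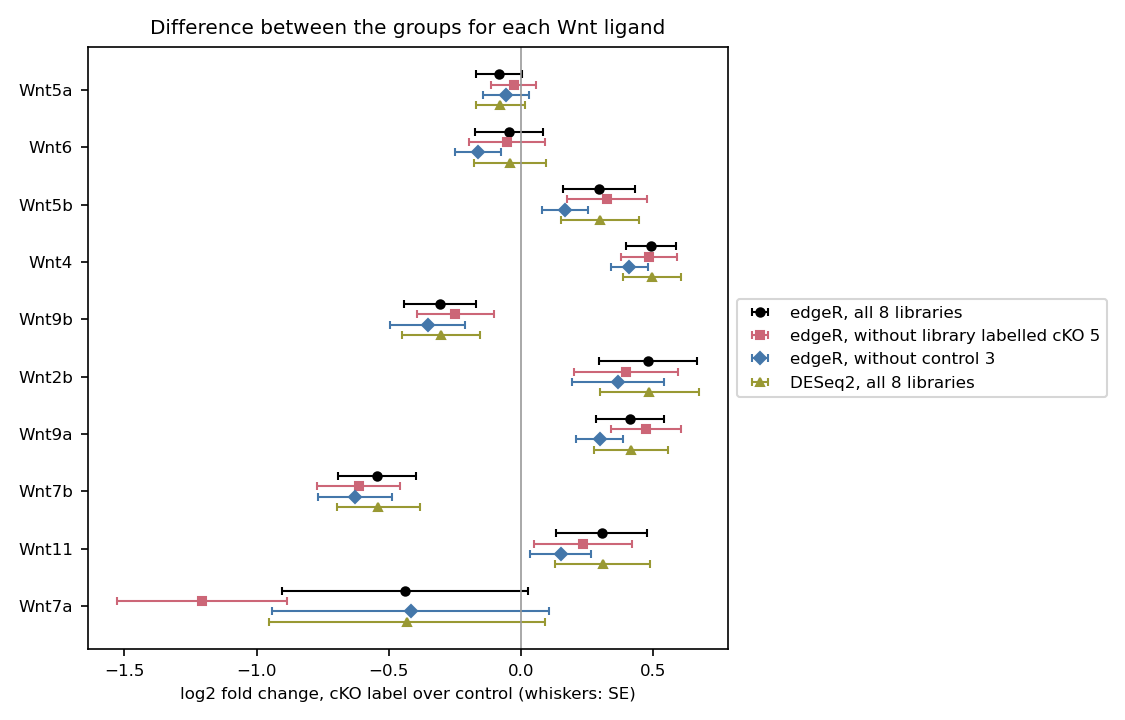
Log2 fold change of the cKO label over control (x axis, whiskers SE) for each ligand (y axis) in edgeR with all 8 libraries, without the library labelled cKO 5 and without control 3, and in DESeq2 with all 8. Wnt7a is the ligand moved most, from -0.44 to -1.21, by leaving out the library labelled cKO 5.

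The library labelled cKO 5 was also highest in 3 of the other 9 Wnt genes. How often it was highest over all genes was not counted, so this is no trait of Wnt genes. Wnt10a, which lies 6.2 kb from Wnt6 on chromosome 1, had 8.79 to 12.7 CPM in controls, 7.45, 8.47 and 8.74 in the libraries labelled cKO 1, 2 and 4, and 17.5 in that labelled cKO 5. Its neighbour Wnt6 showed no such step (114 CPM there). Wnt10b had 1.62 to 2.02 CPM in controls, 1.07 to 1.22 in those 3 libraries and 3.72 in the library labelled cKO 5. Wnt3, which lies 24.3 kb from Wnt9b, had 15 to 20 counts in controls, 7, 6 and 23 in the libraries labelled cKO 1, 2 and 4, and 34 in that labelled cKO 5. Blood markers were highest in the same library (4054 CPM summed, against 857 to 2348 elsewhere), and their part in these values was not tested. Wnt1, Wnt3a, Wnt8a, Wnt8b and Wnt16 did not pass the filter, with at most 14 counts in any library.

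For each of the 9 ligands with a mean of at least 1 CPM, the 2 genes nearest in pattern were taken by Pearson's r of log2 CPM over the 8 libraries, which all genes share. Group means were not removed, so r also reflects any difference between the labels. Among 13057 candidates high r values arise in number, so these are descriptions. Wnt4 was nearest to Creb3 (r = 0.98), a transcription factor of the endoplasmic reticulum, and Wt1os (r = 0.97), the antisense transcript of the mesothelial gene Wt1. Wnt7b was nearest to Nptx2 (r = 0.99) and Camsap3 (r = 0.98), which binds microtubule minus ends in epithelia. Wnt9b was nearest to Pou3f3 (r = 0.96), a transcription factor of the developing kidney, and Smagp (r = 0.94), an epithelial membrane protein. Wnt9a was nearest to Tmcc2 and Chic2 (r = 0.98 each), and Wnt5b to Spout1 and Ubald2 (r = 0.98 each). Wnt2b lay nearest to Cacna1g (r = 0.97) and Ece1 (0.96), Wnt11 to Tldc1 and Vsir (0.98 each), Wnt6 to Ppp1r26 and Adcy6 (0.96 each), and Wnt5a to Abcg4 (0.96) and Ppp1r9a (0.95).

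Genes that act on the ligands were read from lists of the same pathway. Of 11 genes of Wnt secretion and inactivation, 1 was lower at an unadjusted p under 0.05 in edgeR and none higher, a share near that of all genes (4.87% lower, 3.5% higher). That gene was Wls, the carrier of all lipid-bearing Wnts, with 196, 201, 188 and 186 CPM in controls 1, 3, 4 and 6 and 156, 163, 178 and 189 in the libraries labelled cKO 1, 2, 4 and 5 (log2 fold change -0.17, SE 0.08, edgeR adjusted p = 0.596). In Wls the library labelled cKO 5 lay within the controls and the other 3 lay below them, and without it the log2 fold change was -0.22 (SE 0.08). Notum, the enzyme that removes the lipid, had 14.3 ± 1.87 CPM in controls and 11.7 ± 3.82 in the cKO label (log2 fold change -0.30, SE 0.22), and Trabd2b, a protease that cuts Wnts, had 7.97 ± 1.03 and 9.33 ± 1.68 (log2 fold change 0.23, SE 0.15; SD, n = 4 each). Single libraries moved both: Notum was at -0.10 without the library labelled cKO 4, and Trabd2b at 0.10 without that labelled cKO 5.

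Of 18 receptors and co-receptors 2 were lower at an unadjusted p under 0.05 and none higher, against 4.87% and 3.5% of all genes. These were Fzd6 (log2 fold change -0.58, SE 0.08, edgeR adjusted p = 0.161, DESeq2 adjusted p = 1.27e-05) and Fzd5 (-0.38, SE 0.10, edgeR adjusted p = 0.302). Fzd6 had 58.1 to 67.0 CPM in controls and 36.6 to 45.6 in the cKO label, and Fzd5 had 9.29 to 10.9 and 7.25 to 8.44. Both were lower without overlap, as were 3.11% of all genes. Their log2 fold changes were -0.59 (SE 0.10) and -0.37 (SE 0.12) without the library labelled cKO 5. Of 13 secreted or membrane antagonists tested, Sostdc1, which binds Lrp co-receptors and BMPs, was higher at that threshold, 1 gene of 13 (4.66 to 5.88 CPM against 6.14 to 8.70; log2 fold change 0.41, SE 0.15, edgeR adjusted p = 0.488). Sfrp4 and Sfrp5, decoys for Wnts, had log2 fold changes of 0.64 (SE 0.31) and 0.95 (SE 0.47) at low levels, with overlapping groups. They were at 0.34 without the library labelled cKO 4 (Sfrp4) and at 0.61 without control 6 (Sfrp5, which had 4 counts there). All 3 R-spondins tested, which amplify Wnt signals, had estimates above 0 without an unadjusted p under 0.05: Rspo1 at 0.35 (SE 0.27), Rspo3 at 0.18 (SE 0.12) and Rspo2 at 0.27 (SE 0.40). Each rested on single libraries: Rspo1 was at 0.09 (SE 0.08) without control 3. Rspo3 was at 0.07 (SE 0.10) and Rspo2 at -0.33 (SE 0.27) without the library labelled cKO 4, and without control 4 Rspo3 was at 0.11.

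Of 13 genes of beta-catenin feedback and R-spondin reception, 3 were lower and 1 higher at an unadjusted p under 0.05, against 4.87% and 3.5% of all genes. The median log2 fold change was -0.19 with 9 below 0, against 0.01 over all genes. Rnf43, a ligase that removes Frizzled receptors, had 32.1 to 39.5 CPM in controls and 24.1 to 32.9 in the cKO label (log2 fold change -0.35, SE 0.11, edgeR adjusted p = 0.358). Tcf7, a nuclear partner of beta-catenin, had 45.5 to 52.3 and 39.6 to 45.1 CPM, without overlap (-0.24, SE 0.08, edgeR adjusted p = 0.374). Myc was the other lower gene (-0.27, SE 0.12, edgeR adjusted p = 0.596), and Lgr6, an R-spondin receptor, the higher one (0.66, SE 0.28, edgeR adjusted p = 0.561), with 0.38 without the library labelled cKO 4. With all 8 libraries none of the pathway lists held a gene that passed over all genes in edgeR. Ptk7, which is in the receptor list, was the 1 gene that passed without the library labelled cKO 5.

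**Figure D5:**
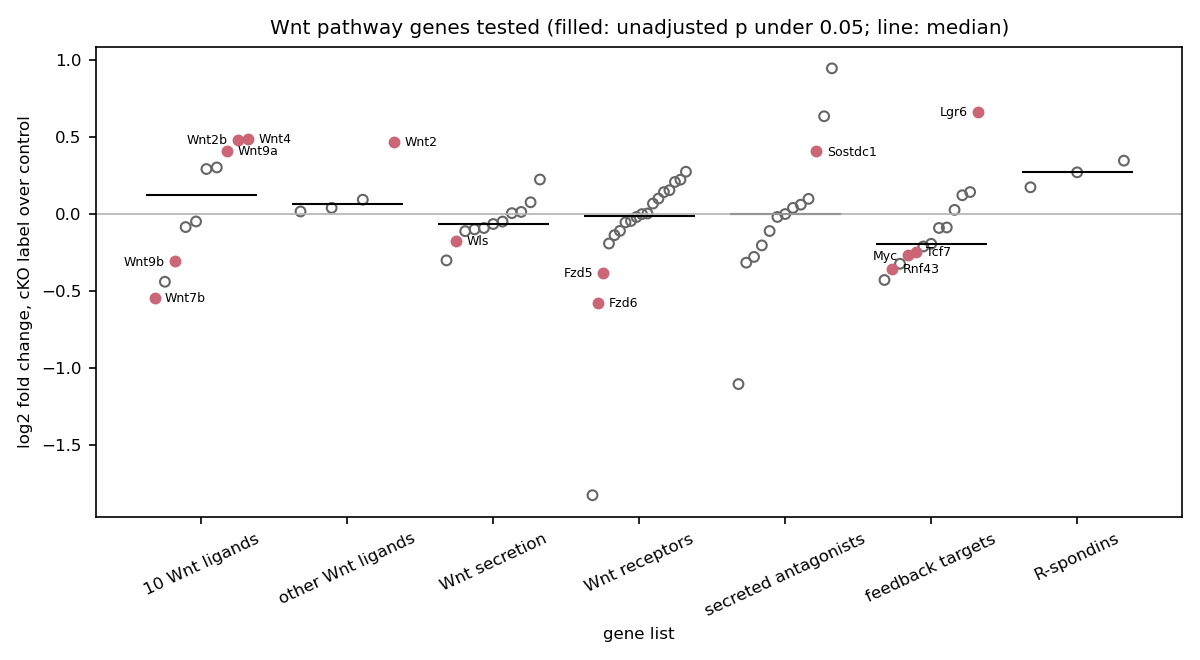
Log2 fold change of the cKO label over control (y axis) for every tested gene of the 10 ligands and of 6 other Wnt lists (x axis), with black lines at the medians and filled points at an unadjusted p under 0.05 in edgeR. Ligands lie on both sides of 0, the median of the feedback list is -0.19, and the lowest receptor point is Ptk7 (-1.82, and -4.42 without the library labelled cKO 5).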

How the data were processed

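Gene expression was measured by RNA sequencing in 8 libraries. STAR, featureCounts and GRCm38 are named in the submitters' processing notes, without versions. How strand and multi-mapping reads were treated is not given in the sources used here, nor is the annotation release. The deposited table holds whole-number read counts for each gene, not normalized, and each gene's summed exon length. Total counts ranged from 24807970 to 29590547. No library was a duplicate: chi-square over its degrees of freedom was at least 13.7 in all 28 pairs.

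Counts were tested with edgeR 4.0.16 in R 4.3.3 (filterByExpr, TMM factors, quasi-likelihood F test on group, Benjamini-Hochberg adjustment over 16469 genes). The SE is the log2 fold change divided by the square root of F. CPM are counts per 1e+06 of the TMM-scaled library size, and RPKM are CPM per kilobase of deposited exon length. DESeq2 1.42.0 and limma 3.58.1 voom were alternatives, with other filters, other scaling, a replicate block and each library left out. The code was tested on simulated data.

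The 10 ligands and all gene lists were chosen with earlier results of these data known. Named genes were the ligands, Ptk7, the 3 genes of smallest p in each other Wnt list (mean CPM of at least 1) and the 2 genes nearest in pattern to each ligand. Myc and single marker genes were named after their values were seen. Counts in each list and the values of nearest-pattern genes are descriptions. Positions are from the deposited table, and 8 of the 10 ligands have the same position in GENCODE M21, whose symbols and transcript sequences were used. Plots were made in Python 3.11.15 (matplotlib 3.10.9).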

Additional observations from a re-analysis of the deposited data

Results flagged for a closer look

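In each group of 4 libraries the highest or lowest value was compared with its nearest neighbour. For 28 named genes this made 56 comparisons, of which 6 stood apart by Dixon's criterion, and chance gives about 1 in 20. Wnt9b was high in the library labelled cKO 2 (42.8 CPM). Ptk7 was high in the library labelled cKO 5 (194 CPM), as were Wnt10a (17.5 CPM) and Wnt10b (3.72 CPM). Rspo2 was high in the library labelled cKO 4 (2.33 CPM), and Rspo1 was low in control 3 (25.8 CPM).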

How the results depend on the processing

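The count of genes called by edgeR, 0 with all 8 libraries, was 1 with no filter on low counts, 7 under the replicate block over numbers 1 and 4, and 0 to 2 when 1 library was left out (2 without control 1, 1 without the library labelled cKO 5). DESeq2 called 186, and 188 without the library labelled cKO 5. edgeR without that library and control 3 called 3. The last 2 fits were chosen after seeing the data. The numbers share 2 values between the groups, and same-numbered libraries did not deviate together (r = -0.09 and 0.02), so the block is a check only. Under it Wnt7b was at -0.93, Wnt9b at -0.55, Wnt6 at -0.32 and Wnt4 at 0.33 (edgeR adjusted p = 0.109, 0.173, 0.318 and 0.341), while Wnt2b shrank to 0.19 and Wnt5b to 0.06. Wnt2b, Wnt4, Wnt5b, Wnt7a, Wnt7b, Wnt9a, Wnt9b and Wnt11 kept their direction under every alternative that gave them a value (Wnt7a has none with a minimum of 1 CPM). Wnt5a was at 0.0032 without control 3 and the library labelled cKO 5. With 1 library left out Wnt6 ranged from -0.16 to 0.045, Wnt10a from -0.34 to 0.15, Wnt10b from -0.58 to 0.23 and Rspo2 from -0.33 to 0.47. Voom gave -0.18 for Wnt10a, -0.34 for Wnt10b and -0.077 for Rspo2. The block gave -0.47 for Wnt10a and -0.62 for Wnt10b. Without the library labelled cKO 5, DESeq2 gave -0.34 for Wnt10a and -0.58 for Wnt10b, and edgeR without control 3 as well gave -0.34 and -0.61. The cause was not tested. Ordered without length correction, 4 of the 10 ligands changed place in controls, since longer genes collect more counts, and TPM changed none. Wnt7a and Wnt3 rest on at most 34 counts a library, so counting error limits them most.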
